A study of Mus musculus with 6 samples.

Results

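Autophagy and mitophagy genes were examined in the gastrocnemius (Gas) muscle of mice that lack miR-92b. The set held 10 members of the deposited count table of 34714 gene symbols, chosen by symbol and not by their values. Earlier results of these data were known when they were chosen. The members were Ulk1, Becn1, Map1lc3a, Map1lc3b, Gabarapl1, Sqstm1, Bnip3l, Fundc1, Pink1 and Tfeb. All 10 passed the filter on low counts. The WT group was 3 male C57BL/6 mice, and the M92KO group was 3 male mice with a global (whole-body) knockout of miR-92b on a C57BL/6J background, a purchased line. All mice were 8 weeks old and untreated. The labels do not state that WT and M92KO mice were littermates, and the loss of miR-92b was not limited to muscle fibres. The study's methods state an overnight fast of all its mice before muscle was taken, and the labels give free access to food and mention no fast. The level of miR-92b itself was not analysed here, so the knockout was not checked from these counts.

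Autophagy wraps cytoplasm in a double membrane, the autophagosome, and delivers it to the lysosome for breakdown. The ULK1 kinase complex starts the process, and the Beclin 1 lipid kinase complex marks the membrane. ATG8 proteins, the LC3 and GABARAP families, are then attached to it, and cargo receptors such as p62 tether cargo to them. Mitophagy is the selective removal of mitochondria, either through receptors on the outer membrane or through the kinase PINK1. TFEB is a transcription factor for autophagy and lysosome genes. Skeletal muscle is known for strong induction of autophagy by fasting and exercise. Transcript levels do not measure autophagic flux, and the proteins and their modification were not analysed here.

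The knocked-out gene makes 2 mature miRNAs. Their sequences are shown because the seed, bases 2 to 8 in capitals, is what a 3′-UTR match is built from. They are from RefSeq (GRCm38.p6), and the minus strand of chr3:89227126-89227147 and chr3:89227165-89227188 encodes them. miR-92a-3p, encoded at chr14:115044476-115044496 and chrX:52741854-52741874, carries the same seed as miR-92b-3p and is shown beside it.
mmu-miR-92b-3p: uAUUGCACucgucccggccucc
mmu-miR-92a-3p: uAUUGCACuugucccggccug
mmu-miR-92b-5p: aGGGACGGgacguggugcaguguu
The same seed was also present in miR-25-3p, miR-32-5p, miR-363-3p and miR-367-3p.

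Annotated 3′-UTRs (GENCODE M21, GRCm38) of 3 of the 10 members held a site for miR-92b-3p by its seed, and in each it was 1 site of the 7mer-A1 kind, the letters TGCAATA. Such a match (8mer GTGCAATA, 7mer GTGCAAT or 7mer TGCAATA) was held by 14.5% of the 13665 tested genes with a 3′-UTR. The sites are shown because 1 of them lies in Ulk1, the member that was lower in M92KO muscle. All are on the minus strand, with the match in capitals.
Ulk1, chr5:110784856-110784862: acgtttttcttTGCAATActtgaaatattg
Bnip3l, chr14:66986574-66986580: tcctgatgttcTGCAATActcagaaaattc
Fundc1, chrX:17557484-17557490: aaagatgtgttTGCAATAaactgaagaatt
The Bnip3l site was in 2 of 2 annotated 3′-UTRs of the gene, that of Ulk1 in 1 of 2 and that of Fundc1 in 1 of 3. The M92KO minus WT log2 fold changes of these genes were -0.25 for Ulk1, 0.04 for Bnip3l and 0.00 for Fundc1, so none of the 3 was higher in M92KO muscle at the threshold used. No member held a match to miR-92b-5p, against 5.93% of those genes. A match of letters is a description and not a shown binding site.

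Library totals were 38246649 to 48209846 counts in WT and 33160508 to 37019640 counts in M92KO mice. Levels are given as CPM, counts per 1000000 counts of a library, with library sizes scaled by edgeR's TMM factors, and a floor of 3 counts came to 0.0629 to 0.0916 CPM. Every member stood far above this floor, with at least 1155 counts in every library. M92KO replicate 1 stood apart. It differed from the other M92KO libraries by a mean chi-square of 57.4 per gene in each pair, against 10.9 between M92KO replicates 2 and 3 and 12.8 to 29.6 between WT libraries. The labelled tissue matched its markers: Acta1, the skeletal muscle actin, was at 25650 to 27460 CPM in all 6 libraries, and the fast myosin Myh4 at 22940 to 31520 CPM.

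Of the 10 members, 1 was higher and 1 was lower in M92KO than in WT muscle at an unadjusted edgeR p-value under 0.05, and 8 did not pass. Sqstm1, which encodes the cargo receptor p62, was the higher member, and Ulk1, which encodes the initiating kinase, the lower one. The other members lay within 0.16 of 0 on the log2 scale. Over all 15788 genes tested, 12.4% passed this threshold, 5.47% higher and 6.92% lower, so 2 of 10 members was a share near that of the table. After Benjamini-Hochberg adjustment over all genes, no member had an adjusted p-value under 0.05, and neither did any other gene in edgeR (0% of all tested, with 1955 at the unadjusted threshold). DESeq2's Wald test gave 312 genes at an adjusted p-value under 0.05, of which 0 were members. The median log2 fold change was 0.02 over the members and -0.00 over all genes tested. The median size of the change, regardless of sign, was 0.04 for the members and 0.12 for all genes. These medians were not of equal precision. The median standard error (SE) was 0.12 over all genes tested, and those of the members ran from 0.0615 (Becn1) to 0.0951 (Fundc1). The M92KO libraries lay all on 1 side of the WT libraries for 2 members, against 18.4% of all genes tested.

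**Figure D1:**
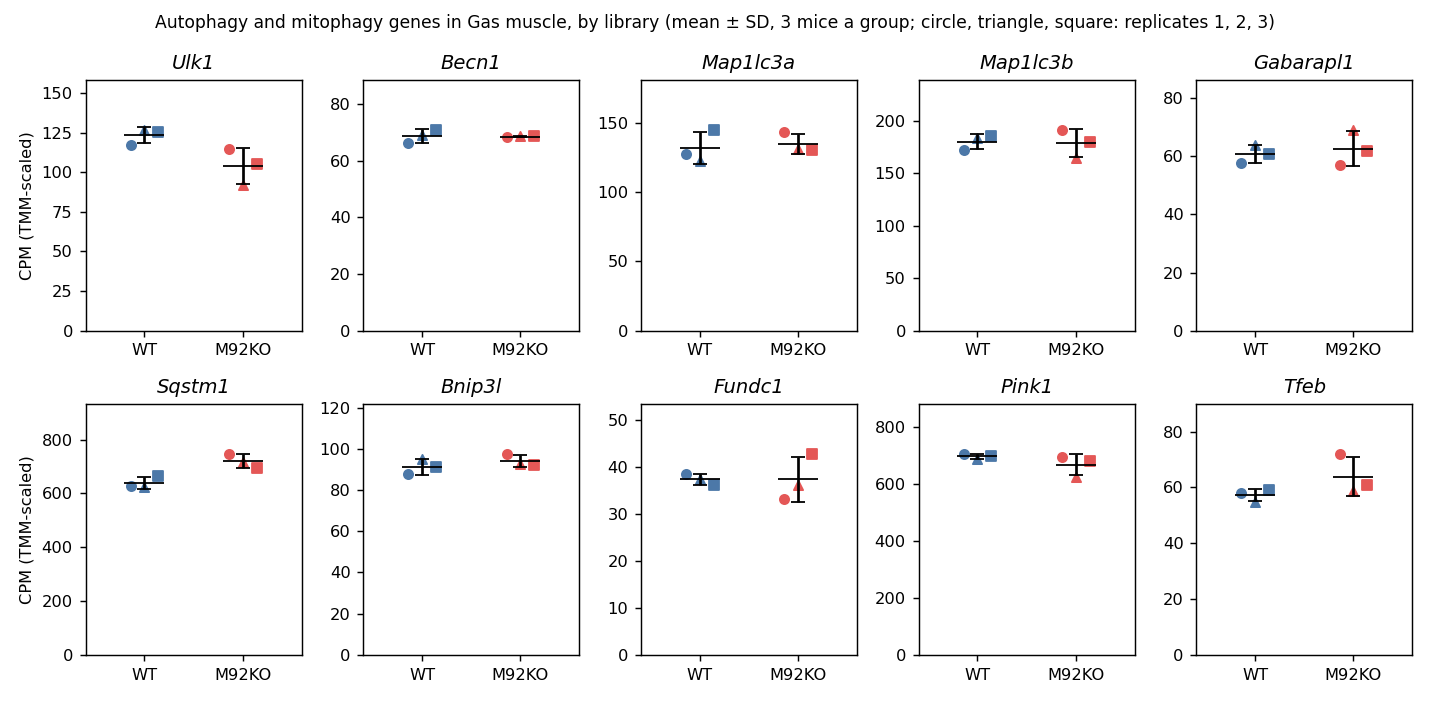
CPM of each member (y axis, from 0) in the 3 WT and 3 M92KO libraries, with the group mean and SD as bars and the replicate number as the marker shape. Ulk1 in M92KO lies at 92.0 to 114 CPM below all WT libraries, Sqstm1 at 696 to 746 CPM above them, and the groups overlap in the other 8 panels.

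The initiation member fell. Ulk1 (chr5:110784488-110810097) was at 117, 127 and 126 CPM in WT replicates 1 to 3 and at 114, 92.0 and 105 CPM in M92KO replicates 1 to 3. Every M92KO library was below every WT library, with the closest pair being replicate 1 of each group. The mean was 123 ± 5.07 CPM in WT and 104 ± 11.2 CPM in M92KO (SD, n = 3). The log2 fold change was -0.25 (SE 0.0881, 95% interval -0.45 to -0.05), a change of -15.8%, with an edgeR adjusted p-value of 0.325. The exact permutation test gave 0.1, which is the smallest two-sided p-value that 3 against 3 libraries allow. The call was lost without M92KO replicate 2 (log2 fold change -0.17), WT replicate 2 (-0.23) or WT replicate 3 (-0.24), and with the steps of the supplementary methods (-0.28). Without M92KO replicate 1 the log2 fold change was -0.32, with an edgeR adjusted p-value of 0.0602.

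The nucleation member did not pass. Becn1 (chr11:101285952-101302286) encodes Beclin 1, a scaffold of the lipid kinase complex. It was at 66.2, 69.3 and 70.9 CPM in WT and at 68.4, 68.7 and 68.6 CPM in M92KO, so the M92KO libraries lay inside the WT range. Its log2 fold change was -0.00 with a 95% interval of -0.15 to 0.14, which leaves room for changes between -9.56% and 9.85%. Exons of Becn1 overlap those of Cntd1 on the opposite strand. The strandedness of the counting was not stated, so it is unknown whether reads in the shared bases were told apart.

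The 3 ATG8 members had overlapping groups. Map1lc3a and Map1lc3b encode LC3A and LC3B, and Gabarapl1 a GABARAP-like protein, all of them coupled to lipid on the autophagosome. Map1lc3a (chr2:155276297-155278073) was at 128, 123 and 145 CPM in WT and at 143, 131 and 129.9 CPM in M92KO. Map1lc3b (chr8:121590361-121598760) was at 172, 183 and 185 CPM in WT and at 191, 165 and 179 CPM in M92KO. The widest span between libraries was inside a group for both genes. Gabarapl1 (chr6:129533160-129542346) was at 57.7, 64.1 and 60.7 CPM in WT and at 57.1, 69.1 and 61.9 CPM in M92KO, with replicate 2 the highest of each group. The log2 fold changes were 0.03 (95% interval -0.16 to 0.22) for Map1lc3a, -0.01 (-0.19 to 0.16) for Map1lc3b and 0.04 (-0.15 to 0.24) for Gabarapl1. Exons of Map1lc3b overlap Zcchc14, and those of Gabarapl1 overlap 1700101I11Rik, each on the opposite strand.

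The cargo receptor member rose. Sqstm1 (chr11:50199366-50210827) encodes p62, which binds ubiquitin on cargo and LC3 on the membrane and is itself degraded by autophagy. It was at 627, 623 and 665 CPM in WT and at 746, 718 and 696 CPM in M92KO. The groups did not overlap, and the gap ran from WT replicate 3 to M92KO replicate 3. The mean was 638 ± 23.3 CPM in WT and 719.9 ± 24.9 CPM in M92KO (SD, n = 3). The log2 fold change was 0.17 (SE 0.0697, 95% interval 0.01 to 0.33), a change of 12.8%, with an edgeR adjusted p-value of 0.373 and an exact permutation p-value of 0.1. The call was lost without WT replicate 1 (log2 fold change 0.16), WT replicate 2 (0.16) or M92KO replicate 2 (0.17), and with the steps of the supplementary methods (0.13). Exons of Sqstm1 overlap Mrnip on the opposite strand.

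The 2 mitophagy receptors among the members did not pass. Bnip3l (chr14:66985239-67008877), also known as NIX, was at 87.7, 95.1 and 91.0 CPM in WT and at 97.4, 92.5 and 92.1 CPM in M92KO. Fundc1 (chrX:17556564-17572325) encodes an outer membrane receptor known for mitophagy in low oxygen. It was at 38.5, 37.4 and 36.2 CPM in WT and at 33.3, 36.2 and 42.7 CPM in M92KO. The M92KO libraries of Fundc1 held both its lowest and its highest value, with a coefficient of variation of 12.9% against 3.02% in WT. The log2 fold changes were 0.04 (95% interval -0.11 to 0.19) for Bnip3l and 0.00 (-0.22 to 0.22) for Fundc1.

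Pink1 (chr4:138313409-138326307) encodes the kinase that builds up on damaged mitochondria and phosphorylates ubiquitin there. It was at 706, 689 and 699 CPM in WT and at 697, 627 and 683 CPM in M92KO. M92KO replicate 1 lay within the WT range and replicates 2 and 3 below it. Its log2 fold change was -0.06 (95% interval -0.22 to 0.10). Exons of Pink1 overlap Gm27646 and Mir7019 on the same strand.

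Tfeb (chr17:47737030-47792419) encodes the transcription factor named above. It was at 58.1, 54.8 and 59.0 CPM in WT and at 71.9, 58.9 and 60.8 CPM in M92KO. M92KO replicate 1 was well above all other libraries, and M92KO replicate 2 was just below WT replicate 3. The log2 fold change was 0.16 (SE 0.0877, 95% interval -0.04 to 0.36) with an edgeR adjusted p-value of 0.528. It was 0.06 without M92KO replicate 1.

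**Figure D2:**
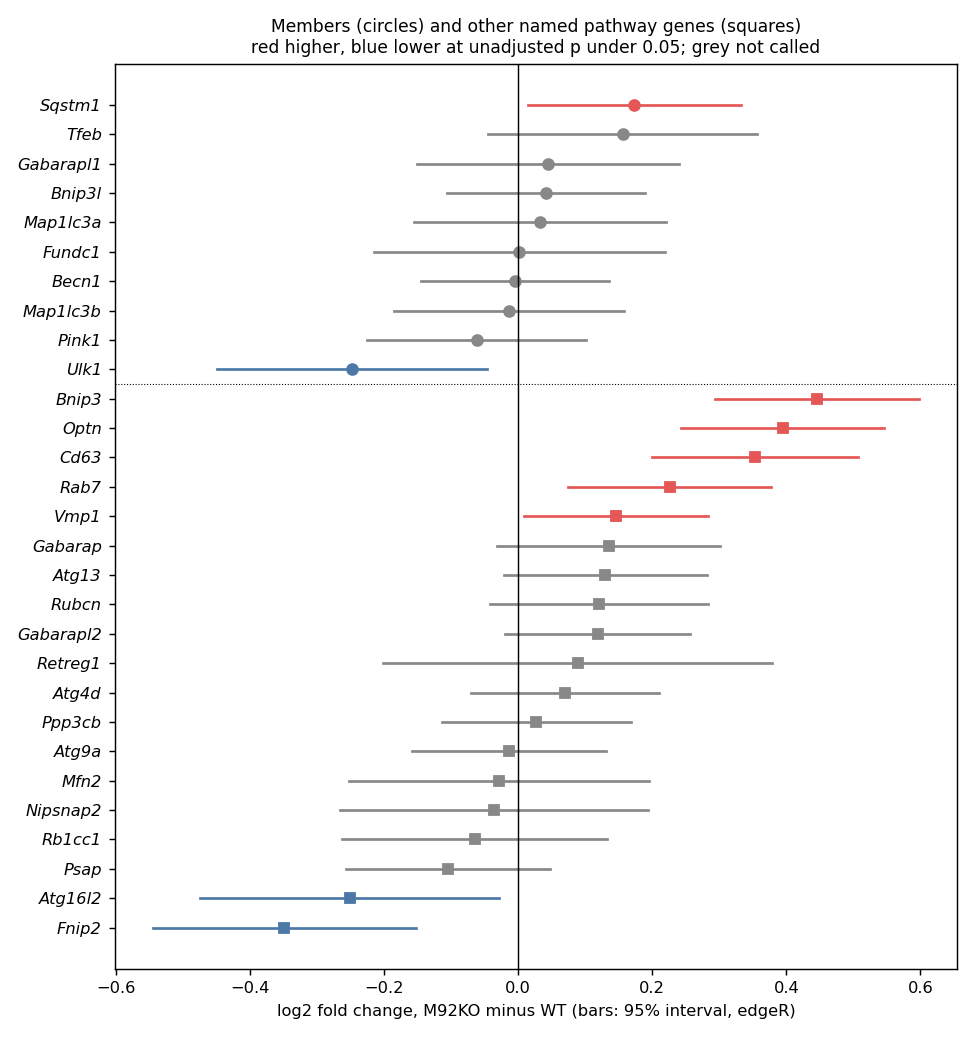
Log2 fold change, M92KO minus WT, with its 95% interval (x axis) for the 10 members (circles, above the dotted line) and 19 other named pathway genes (squares). The intervals of Ulk1 and Sqstm1 exclude 0 by little, while those of Bnip3 (0.29 to 0.60) and Optn (0.24 to 0.55) lie further from it.

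To compare levels between genes, counts were divided by transcript length and scaled to sum to 1000000 in every library (TPM). In WT muscle Pink1 had the highest level of the members (693 ± 19.4 TPM), followed by Sqstm1 (563 ± 11.4 TPM), Map1lc3a (279 ± 19.9 TPM) and Map1lc3b (161 ± 3.69 TPM; SD, n = 3 for each). Gabarapl1 (78.8 TPM), Bnip3l (66.1 TPM), Tfeb (57.7 TPM), Ulk1 (55.8 TPM), Fundc1 (44.5 TPM) and Becn1 (37.2 TPM) followed. Neighbours in this order did not overlap between WT libraries, except Tfeb (55.4 to 59.7 TPM) and Ulk1 (54.2 to 57.5 TPM). In M92KO muscle Tfeb was at 58.8 to 69.1 TPM and Ulk1 at 41.3 to 49.4 TPM, so these levels were apart there. These TPM values rest on 1 transcript length per gene and do not account for isoforms.

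Sqstm1 and Ulk1 were also compared as a ratio within each library, which is free of library scaling. Sqstm1 had 5.34, 4.92 and 5.30 counts per count of Ulk1 in WT and 6.52, 7.81 and 6.63 in M92KO. The mean log2 ratios differed by 0.43. This pair was chosen after the values were seen, as the higher and the lower member, so the ratio is a description and was not tested.

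Promoter windows of 250 bases before to 50 after the start were matched for 7 members (RefSeq, GRCm38.p6), and Becn1, Map1lc3a and Bnip3l had no entry. None of the 7 held the E-box CACGTG, the longer form TCACGTGA that contains it, or the letters GTAAACA, on either strand. Counted by gene in the same way, they were held by 8.09%, 1.12% and 4.05% of 27025 genes with a promoter entry. Their absence says only that these letters were not in these windows.

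The rest of the pathway was described by 94 other genes in 11 groups by step. Of these, 8 were higher and 2 lower in M92KO muscle at the unadjusted threshold, and 84 did not pass. The share higher was 8.51%, against 5.47% of all genes, and the share lower 2.13%, against 6.92%. The list was chosen with earlier results of these data known, and the difference in shares was not tested. The higher genes were Bnip3, Optn, Cd63, Hexa, Rab7, Wipi1, Vmp1 and Ctsd, and the lower genes were Fnip2 and Atg16l2. None passed adjustment in edgeR, while DESeq2 gave Bnip3, Optn, Cd63 and Hexa adjusted p-values under 0.05. The median log2 fold change of the 94 genes was 0.02. Leaving out M92KO replicate 1 raised the counts to 20 higher and 7 lower. The whole table rose as well, to 1545 higher and 1439 lower of 16058 genes, from 863 and 1092 of 15788. Without any 1 of the WT replicates 5 of the 94 genes were higher, and without M92KO replicate 2 or 3 the number was 7. Over the whole table, 663, 531 and 554 genes were higher without WT replicates 1, 2 and 3. Without M92KO replicates 2 and 3 they were 704 and 745.

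**Figure D3:**
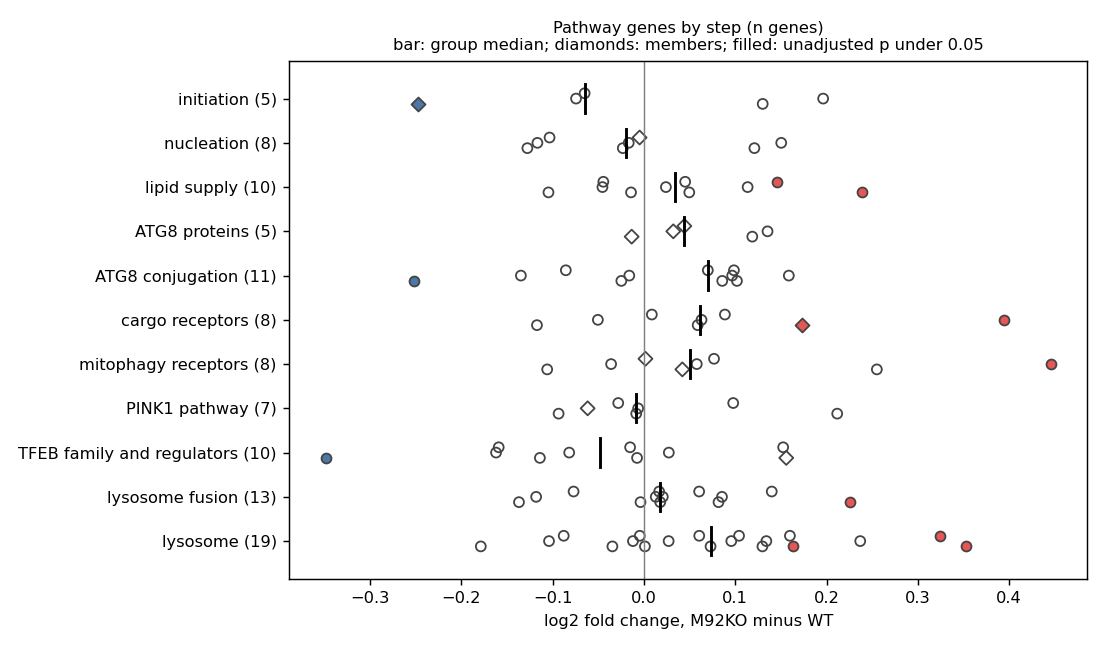
Log2 fold change of all 104 pathway genes (x axis), grouped by step (y axis, with the number of genes), with the group median as a bar, members as diamonds and filled symbols for an unadjusted p-value under 0.05. Group medians lie between -0.06 (initiation) and 0.07 (lysosome), and the filled symbols on the right include Bnip3 (0.45) and Optn (0.39).

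Bnip3 encodes a mitophagy receptor and is the paralog of Bnip3l. It was at 226, 242 and 238 CPM in WT and at 319, 308 and 333 CPM in M92KO. All M92KO libraries were above all WT libraries. The log2 fold change was 0.45 (SE 0.0666, 95% interval 0.29 to 0.60), a change of 36.2%, with an adjusted p-value of 0.165 in edgeR and 7.65e-06 in DESeq2. Bnip3 passed the unadjusted threshold with each of the 6 libraries left out, at log2 fold changes of 0.42 to 0.47. The Bnip3 to Bnip3l count ratio was 2.57, 2.54 and 2.61 in WT and 3.27, 3.33 and 3.61 in M92KO. The mean log2 ratio differed by 0.40. This pair was chosen after its values were seen and was not tested. Exons of Bnip3 overlap Gm45507 on the opposite strand. Of the 8 mitophagy receptors in the list, Bnip3 was the 1 that passed. Nipsnap2, the non-member of this group with the highest mean CPM, was at 552 CPM in M92KO replicate 1 against 640.1 to 719 CPM in the other 5 libraries.

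Among the other cargo receptors, Optn passed and 6 did not. Optn encodes optineurin, which binds ubiquitin on damaged mitochondria. It was at 116, 106 and 106 CPM in WT and at 143, 142 and 147 CPM in M92KO, with no overlap. The log2 fold change was 0.39 (SE 0.0661), with an adjusted p-value of 0.165 in edgeR and 0.000523 in DESeq2. Retreg1, a receptor for endoplasmic reticulum and the one with the highest mean CPM of the other receptors, was at 237 to 297 CPM in WT and at 229.8 to 309 CPM in M92KO.

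In the initiation group the other 4 genes did not pass. Atg13, a subunit of the ULK1 complex, was at 51.9 to 55.8 CPM in WT and at 56.1 to 60.7 CPM in M92KO, and its log2 fold change of 0.13 lay on the other side of 0 from that of Ulk1. Rb1cc1, which encodes the FIP200 scaffold of the same complex, had a log2 fold change of -0.06. In the nucleation group 0 of 8 genes passed, and Rubcn, which encodes the inhibitor Rubicon, had a log2 fold change of 0.12. In the lipid supply group Vmp1 and Wipi1 passed. Vmp1, a membrane protein of the endoplasmic reticulum, was at 79.0 to 82.9 CPM in WT and at 87.8 to 90.1 CPM in M92KO, with a log2 fold change of 0.15 (adjusted p-value 0.385, edgeR). Wipi1, which binds the lipid that the Beclin 1 complex makes, had a log2 fold change of 0.24 (adjusted p-value 0.399, edgeR). Both passed without M92KO replicate 1 and lost the call without any other library, with ranges of 0.13 to 0.17 for Vmp1 and 0.14 to 0.33 for Wipi1. Vmp1 also lost it with DESeq2's Wald test (0.15) and without a filter on low counts (0.14), and Wipi1 with DESeq2's size factors in edgeR (0.24) and the steps of the supplementary methods (0.21). Atg9a, a lipid scramblase with the highest mean CPM of this group, had one of -0.01.

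Gabarap and Gabarapl2, the ATG8 genes outside the members, had log2 fold changes of 0.14 and 0.12, and neither passed. Atg16l2, a relative of the Atg16l1 conjugation factor, was at 16.3, 16.2 and 18.5 CPM in WT and at 15.5, 13.2 and 14.2 CPM in M92KO. Its log2 fold change was -0.25 (SE 0.098, adjusted p-value 0.361 in edgeR), and it was the 1 conjugation gene of 11 that passed. It did not pass without WT replicate 3 (-0.19), M92KO replicate 2 (-0.20) or M92KO replicate 3 (-0.25), with the steps of the supplementary methods (-0.22), or with offsets for GC content and transcript length (-0.19). Atg4d, a protease that trims ATG8 proteins, had a log2 fold change of 0.07.

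None of the 7 genes of the PINK1 pathway passed. Mfn2, a mitofusin of the outer membrane and the non-member with the highest mean CPM of this group, was at 459 to 489 CPM in WT and at 402 to 519 CPM in M92KO. Among the TFEB family and its regulators, Fnip2 passed and 9 did not. Fnip2 encodes a folliculin-binding protein that acts on the lysosomal nutrient signal. It was at 15.2, 16.8 and 16.1 CPM in WT and at 12.0, 13.0 and 12.7 CPM in M92KO, with a log2 fold change of -0.35 (SE 0.086, adjusted p-value 0.195 in edgeR). Ppp3cb, a calcineurin subunit, had a log2 fold change of 0.03.

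Of 13 fusion genes, Rab7 passed. Rab7, the small GTPase of late endosomes, was at 379, 360.1 and 378 CPM in WT and at 452, 434 and 421 CPM in M92KO, with a log2 fold change of 0.23 (SE 0.0663, adjusted p-value 0.255 in edgeR). It lost the call with the steps of the supplementary methods (0.17). Of 19 lysosome genes, Cd63, Hexa and Ctsd passed, all of them higher, and 16 did not. Cd63, a lysosomal tetraspanin, was at 90.7, 82.2 and 82.8 CPM in WT and at 112, 106 and 109 CPM in M92KO, with a log2 fold change of 0.35 (SE 0.0675, adjusted p-value 0.179 in edgeR and 0.00359 in DESeq2). The log2 fold changes of Hexa and Ctsd, which encode a hexosaminidase subunit and cathepsin D, were 0.32 and 0.16. Ctsd passed without M92KO replicate 1 or 2 and lost the call without any of the other 4 libraries (log2 fold changes of 0.15 to 0.19 over the 6 fits). It also lost the call without a filter on low counts (0.16) and with the steps of the supplementary methods (0.07). Psap, the lysosome gene of the list with the highest mean CPM over all 6 libraries, was at 931, 933 and 968 CPM in WT and at 880.0, 871 and 883 CPM in M92KO. Its log2 fold change of -0.10 did not pass. Ctsd was at 843, 844 and 868 CPM in WT and at 971, 913 and 977 CPM in M92KO.

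Some markers of other cells in the muscle passed the same unadjusted threshold, which 12.4% of all genes tested also passed. Of 6 fibroblast markers 3 were lower in M92KO (Col1a1, Col1a2 and Dcn), and their summed level was 1709 to 2270.0 CPM in WT and 1151 to 1597 CPM in M92KO. Of 8 macrophage and leukocyte markers 1 was lower (Ptprc), with a summed level of 108 to 119 CPM in WT and 83.4 to 117 CPM in M92KO. No endothelial marker of 6 passed (813 to 884 and 719 to 899 CPM), and neither did any of 5 red cell markers (74.0 to 223 and 143 to 336 CPM), 5 tested fat cell markers (4.19 to 11.7 and 7.46 to 21.4 CPM for the list of 6) or 6 slow fibre markers (108 to 201 and 80.4 to 166 CPM). No marker list was at 0 as a whole, and Lep, a fat cell marker, was at 0 in WT replicate 2 and did not pass the filter. Of 6 muscle fibre genes Myh2, the IIA myosin, was higher with a log2 fold change of 0.70 (adjusted p-value 0.314, edgeR). Myh2 was at 2124, 2239 and 1612 CPM in WT and at 2018, 3575 and 4099 CPM in M92KO. Its groups overlapped, with M92KO replicate 1 inside the WT range. The study's qPCR of fibre-type genes in Gas, Myh2 among them, found no differences between WT and M92KO mice. The summed level of the muscle fibre genes was 88780.0 to 96910.0 CPM in WT and 92200.0 to 93160.0 CPM in M92KO. The part of these cells and fibres in the values of Sqstm1, Ulk1 and the other pathway genes was not tested, and in whole muscle fewer cells of a type and less RNA per cell cannot be told apart. In M92KO replicate 1, the library with the highest Tfeb and Sqstm1 and the lowest Fundc1, the myosin Myh1 was at 9664 CPM, against 14350.0 to 17200.0 CPM in the other 5 libraries.

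**Figure D4:**
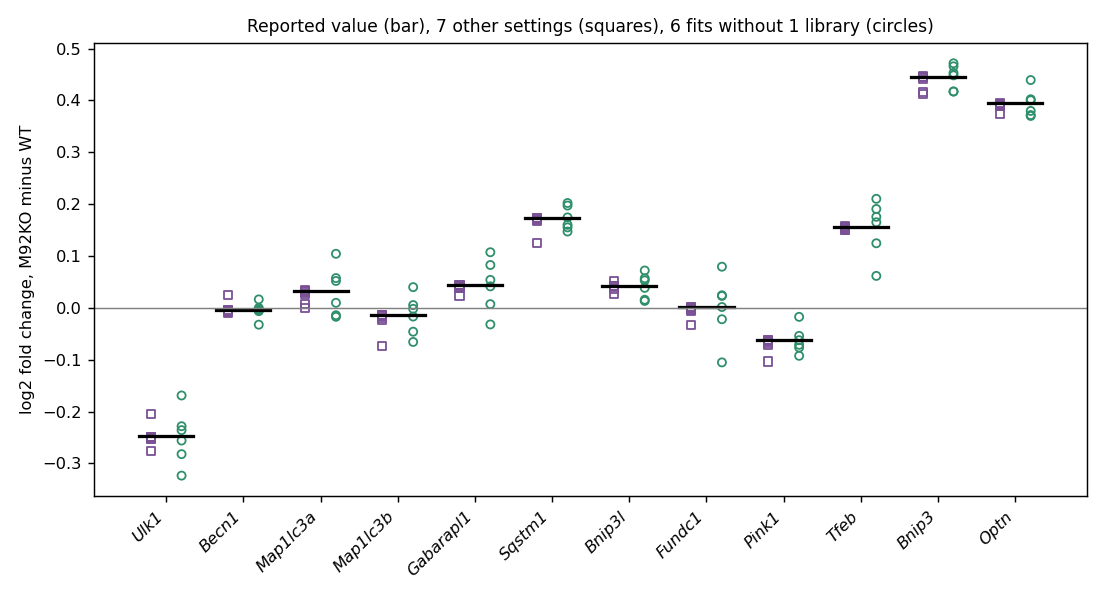
Log2 fold change, M92KO minus WT (y axis), of the members, Bnip3 and Optn (x axis) as reported (bar), under 7 other settings (squares) and with each of the 6 libraries left out (circles). Ulk1 stays between -0.32 and -0.17 and Sqstm1 between 0.13 and 0.20, while the points of Becn1, Map1lc3a, Map1lc3b, Gabarapl1 and Fundc1 fall on both sides of 0.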

How the data were processed

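RNA was extracted from Gas muscle of 3 WT and 3 M92KO mice, 1 library per mouse, and libraries were made with a SMARTer mRNA kit, per the labels. The authors deposited unnormalized read counts per gene symbol. The submitters' processing notes name the builds GRCm38 and mm10. The aligner, the counting program and the strandedness are not given in the sources used here. Every column of sample values was used. Mir92b was not analysed here.

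The fit was made with edgeR 4.0.16 (R 4.3.3), using filterByExpr (minimum count 10, minimum total count 15; 15788 genes), TMM, and the quasi-likelihood test of M92KO against WT without covariates. The Benjamini-Hochberg adjustment covered the whole tested table, and single genes were called at an unadjusted p-value under 0.05, the study's threshold. SE is the log2 fold change divided by the root of F, and intervals are 95% from the same fit. Exact permutation tests on single genes used log2(CPM + 1). All p-values measure the spread between mice. Floors of 3 counts cover counting error only. The script was tested on simulated data.

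The members and lists were chosen with earlier results of these data known. Named genes were all members and, from each pathway group, the other gene with the smallest p-value and that with the highest mean CPM. Some genes under this rule and 1 marker list are not reported here. Wipi1, Hexa and Ctsd were named after their values were seen because they passed the threshold, and Acta1, Myh4, Myh1 and the markers as the check of the tissue.

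GENCODE M21 gave positions, transcript lengths and 3′-UTRs, with 26155 of 34714 symbols matched. Alternatives were DESeq2 1.42.0 (size factors in edgeR, and its Wald test), no filter, the supplementary methods' steps (normalizeBetweenArrays, log2 after adding 1, limma 3.58.1), a minimum of 10 counts per library, the replicate number as a block, offsets for GC content and transcript length (lowess span 0.3), and each library left out in turn. No 2 libraries agreed within sampling noise, with a mean chi-square per gene of at least 10.9 in every pair of a group. Summaries used Python 3.11.15, pandas 2.3.3 and matplotlib 3.10.9.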

Additional observations from a re-analysis of the deposited data

How the results depend on the processing

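The sign of the log2 fold change of Ulk1, Sqstm1, Tfeb, Pink1 and Bnip3l was the same in all 13 alternatives. The steps of the supplementary methods gave 0 members higher and 0 lower, and 42 genes of the table at an adjusted p-value under 0.05. Of the genes called with those steps 54.4% were higher, against 44.1% in the edgeR fit used for the values above. With the GC content and length offsets 2 members (Sqstm1 and Tfeb) were higher and 1 member (Ulk1) was lower. Of the other pathway genes 14 were higher and 1 lower, and of all 14752 genes tested 963 were higher and 1018 lower. Without a filter on low counts 6 genes of the table passed adjustment, and DESeq2's Wald test gave 312. Near-zero values changed sign: Fundc1 was at -0.0035 without a filter, -0.0014 with the supplementary steps, -0.0053 with the replicate block and -0.0336 with the offsets, under which Becn1 was at 0.0254, Map1lc3a at -0.0006, Atg9a at 0.0122 and Mfn2 at 0.0029.

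The replicate numbers did not pair the samples: the correlations of same-numbered deviations were 0.0806, 0.0376 and 0.0151. With the replicate block Sqstm1 (0.17), Vmp1 (0.15), Wipi1 (0.23) and Ctsd (0.16) lost the call, 0 members were higher, 5 other pathway genes were higher, and 2 genes of the table passed adjustment. With 1 library left out in turn, members higher ranged from 0 to 1 and lower from 0 to 1, other pathway genes higher from 5 to 20 and lower from 1 to 7, and genes of the table from 1222 to 2984 at the unadjusted and from 0 to 401 at the adjusted threshold, both maxima without M92KO replicate 1. Among values that changed sign with 1 library left out, the ranges were -0.0325 to 0.0163 for Becn1, -0.0173 to 0.1042 for Map1lc3a, -0.0658 to 0.0399 for Map1lc3b, -0.032 to 0.1072 for Gabarapl1, -0.1052 to 0.0793 for Fundc1, -0.1354 to 0.0158 for Rb1cc1, -0.044 to 0.0075 for Atg9a, -0.0026 to 0.2024 for Retreg1, -0.1214 to 0.0643 for Nipsnap2 and -0.1102 to 0.0688 for Mfn2. The cause of these changes was not tested. With 3 mice a group, the 95% intervals of the members reached 0.14 to 0.22 to either side of the log2 fold change. True differences of that size or smaller could be missed, and so could somewhat larger ones. At the adjusted threshold the limit was wider: Bnip3, with a log2 fold change of 0.45, did not pass in edgeR (adjusted p-value 0.165).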
